A study of Mus musculus with 12 samples.

Results

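The genes described here build, regulate and travel along microtubules. They are 36 members, listed by name and role, although earlier results of these data were known when the list was made: 3 α-tubulins, 6 β-tubulins, 4 stathmins, 6 microtubule-associated proteins, 2 tubulin polymerization-promoting proteins, 2 kinesin-3 motors, 3 kinesin-2 subunits, 5 kinesin-1 subunits and 5 dynein or dynactin subunits. All 36 were found among the 54532 gene identifiers of the count table, and all 36 were among the 18299 genes with enough reads to test. RNA sequencing was performed on retina of wild type C57BL/6 mice aged 13 weeks, in 4 groups of 3 libraries each. SHAM was the control group, and the other groups had all been immunized with a myelin oligodendrocyte glycoprotein (MOG) peptide, which gives experimental autoimmune encephalomyelitis with inflammation of the optic nerve. MOG received no needling, GB20 was needled at the GB20 acupoint at the back of the neck, and GV16 was needled at the GV16 acupoint, a control site on the midline nearby. The mice were female per the study's methods, and both needled groups were anesthetized with xylazine and ketamine before each needling. Per the study's methods, the experiment was repeated for each of 3 biological replicates with several mice in a group. The sources used here do not state what SHAM received, whether SHAM and MOG were anesthetized, or whether the RNA of several mice was combined in a library, and the p-values measure the spread between these libraries. Libraries held between 15860278 and 19194280 counted fragments, and levels of single genes are given in CPM, the count scaled to the library's normalized total.

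Microtubules are hollow polymers of α- and β-tubulin dimers. In neurons they run the length of the axon and form the track on which kinesins carry cargo away from the cell body and dynein, with its activator dynactin, carries it back. Retinal ganglion cells are the retinal neurons whose axons form the optic nerve, so their cell bodies supply tubulin and motors to a long axon that leaves the retina. Messenger RNA of the whole dissected retina, with all of its cell types, was measured, not protein, transport or the optic nerve.

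Several tubulin genes are near-identical copies, which limits what a read count can tell. Within the coding sequence, Tuba1a and Tuba1b were 98.3% identical and shared an unbroken run of 281 bases, and Tubb2a and Tubb2b were 96.5% identical with a shared run of 551 bases. Counts of these 4 genes could be split between copies in a way the sources used here do not describe, and they are treated as uncertain. Tubb3, the neuronal β-tubulin widely used to stain ganglion cells, was 81.4% to 85.9% identical to the other β-tubulin members, and its longest run shared with any of them was 47 bases. The end of the β-tubulin coding sequence encodes the acidic tail that motors and tubulin-modifying enzymes act on. The last 60 coding bases, stop codon included, are shown on the GRCm38 build because they show how a read can be assigned to Tubb3, with capitals for bases that do not match Tubb5 in a pairwise alignment.
Tubb5, chr17:35834982-35835041, minus strand: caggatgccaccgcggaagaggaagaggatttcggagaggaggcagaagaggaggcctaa
Tubb4a, chr17:57080690-57080749, minus strand: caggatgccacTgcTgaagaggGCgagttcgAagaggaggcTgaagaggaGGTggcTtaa
Tubb2a, chr13:34074468-34074527, minus strand: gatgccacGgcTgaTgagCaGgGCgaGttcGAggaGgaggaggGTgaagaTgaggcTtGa
Tubb2b, chr13:34127471-34127530, minus strand: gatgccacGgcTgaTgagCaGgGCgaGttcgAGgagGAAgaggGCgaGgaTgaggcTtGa
Tubb3, chr8:123421623-123421682, plus strand: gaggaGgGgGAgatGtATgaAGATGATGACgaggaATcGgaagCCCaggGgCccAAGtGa
Tubb3 had 29 bases that did not match, against 10 in Tubb4a, 16 in Tubb2a and 19 in Tubb2b.

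The members spanned a wide range of levels. On the FPKM scale, which divides reads by gene length and so allows genes to be compared, the α-tubulins Tuba1a and Tuba1b stood highest in SHAM at 177 ± 12 and 173 ± 12 (SD, n = 3), followed by the dynein light chain Dynll2 at 153 ± 14, the stathmin Stmn3 at 116 ± 15 and the kinesin light chain Klc1 at 116 ± 4.3. The libraries of Stmn3 and Klc1 overlapped, as did those of Dynll2 and Tuba1b and of both α-tubulins, while Dynll2 lay above Stmn3 in every library. Tubb6, a minor β-tubulin, was the lowest member at 2.10 ± 0.31, and Tubb2b was next at 5.86 ± 0.63. Tubb3 lay between, at 52.3 ± 4.4.

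**Figure D1:**
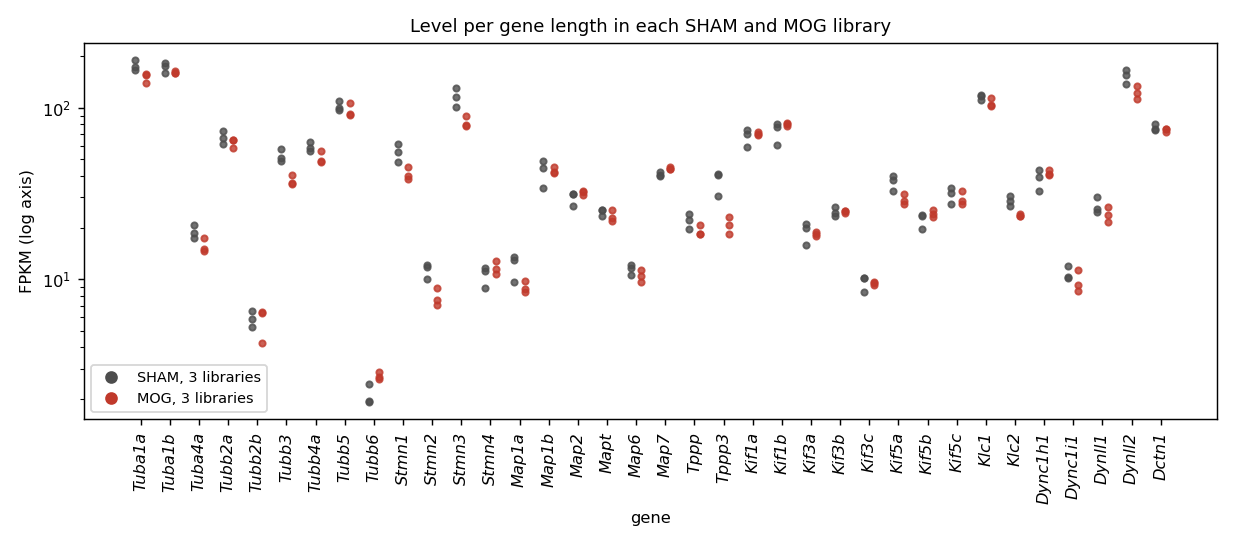
Level of each of the 36 members in FPKM on a log axis, with 1 point per library for SHAM (grey) and MOG (red). Levels ran from 2.10 (Tubb6) to 177 (Tuba1a) in SHAM means, and the red points lie below all grey points for Tubb3, Stmn1, Stmn2, Stmn3, Tppp3, Kif5a and Klc2. The same holds for Tuba1a, Tuba4a and Dynll2, which were not called.

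The comparison of MOG with SHAM asks which genes the immunization affected. In MOG, 7 of the 36 members fell and 0 rose, by edgeR's quasi-likelihood test with an adjusted p under 0.05 over all genes tested. The 7 were Tppp3, Stmn2, Stmn3, Tubb3, Stmn1, Kif5a and Klc2, and their declines ran from 44.4% for Tppp3 to 17.5% for Klc2. Over all genes tested, 1.34% were called in either direction and 0.771% were called lower. When single libraries were left out the count ran from 2 to 8, with 2 without MOG 2, 2 without MOG 3 and 3 without SHAM 1, and it was 2 when FPKM values were tested with limma; Tubb3 and Tppp3 were called each time. The median log2 fold change was -0.10 over the members and -0.00235 over all genes. In 11 members every MOG library lay below every SHAM library, where 8.34% of all genes did so.

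**Figure D2:**
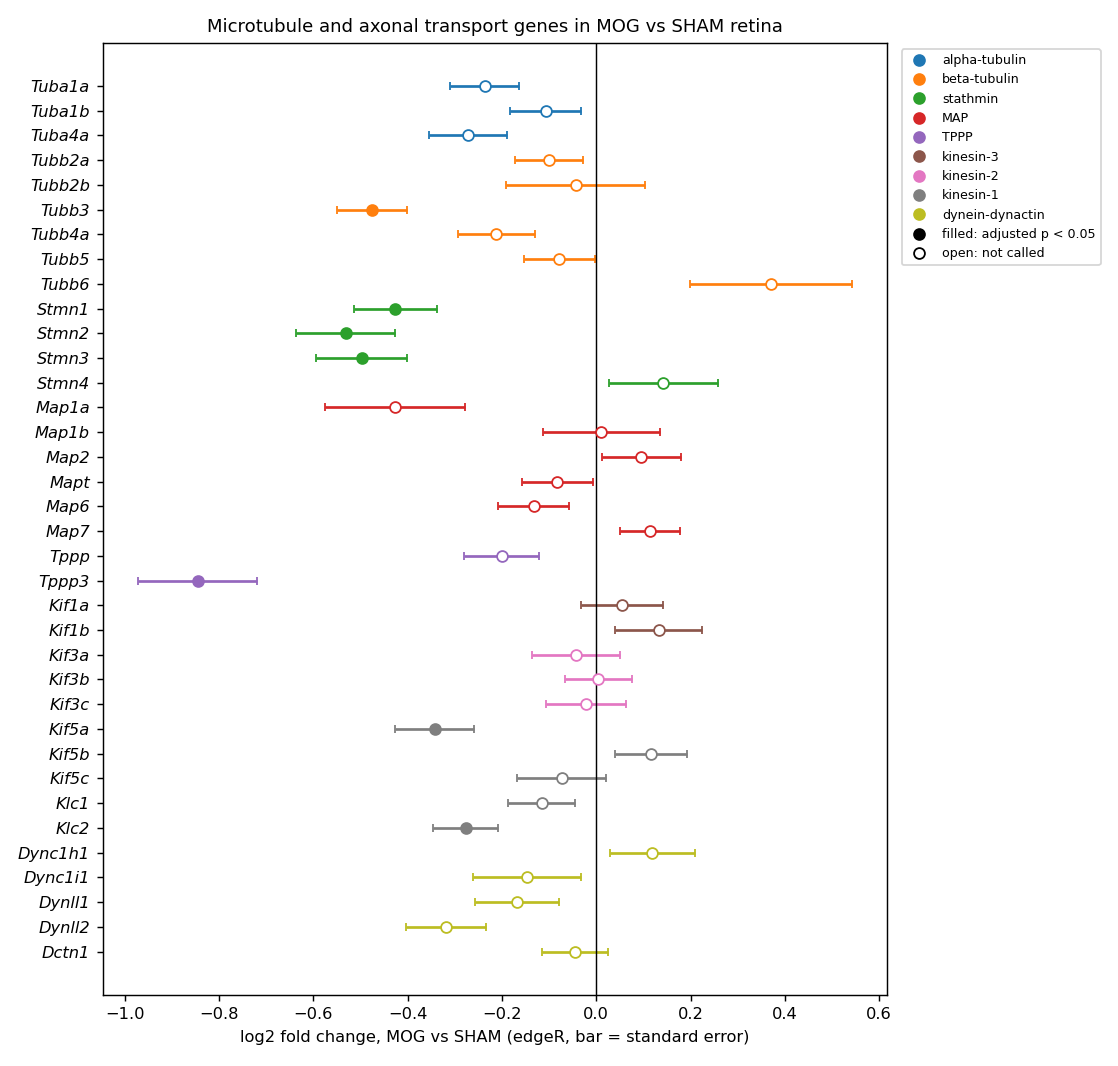
Log2 fold change of MOG vs SHAM for the 36 members with its standard error, coloured by role; filled points had an adjusted p under 0.05. The 7 filled points all lie left of 0, with Tppp3 farthest at -0.85, and the kinesin-2 subunits lie at 0 within their errors.

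The members that fell moved together with the marker genes of retinal ganglion cells. Of 15 listed ganglion cell markers, 14 were called lower in MOG, where 0.771% of all genes tested were. The list was made with earlier results known, and the study had reported Pou4f1, Isl2, Sncg and Uchl1 as lower in these same libraries. It also gave neurofilament as a top enriched category, and the neurofilament genes Nefl, Nefm and Nefh are on the list. The count is therefore not independent of those results. The median log2 fold change of the 15 markers was -0.90. Their summed level was 1046 to 1192 CPM in the SHAM libraries and 591 to 706 CPM in the MOG libraries. In whole retina, fewer cells of a type and less RNA per cell cannot be told apart, and what the ganglion cell signal contributes to the members' declines was not tested. The markers of amacrine, horizontal, bipolar, rod, cone and endothelial cells had 0 calls in this comparison. At an unadjusted p under 0.05 by edgeR, which 2380 of 18299 genes reached, 2 of 6 cone markers were lower and 1 of 7 rod markers was higher. The cone gene Arr3 had means of 381 CPM in SHAM and 268 CPM in MOG, and the groups of all 6 cone markers overlapped. Markers of pigment epithelium also had 0 calls by edgeR, but 4 of 7 were higher at an unadjusted p under 0.05 and DESeq2 on 6 libraries called 3. Their summed level was 16.7 to 23.8 CPM in SHAM and 33.3 to 46.6 CPM in MOG. Summed astrocyte markers went from 38.3 to 45.2 CPM in SHAM to 71 to 76.1 CPM in MOG, and summed microglia markers from 18.6 to 25.9 CPM to 32.1 to 36.3 CPM, with 1 of 4 and 2 of 7 genes called higher. The called astrocyte gene was Gfap, with means of 23.1 CPM in SHAM and 54.9 CPM in MOG. Pdgfra had 11.1 and 12.8 CPM and Pax2 0.71 and 0.76 CPM. S100b was lower in MOG, at 7.27 and 5.58 CPM, and its groups did not overlap. A single listed gene each of Müller cells (of 8), oligodendrocytes (of 4 tested) and ciliated epithelium (of 3 tested) was also called higher. Other genes of these lists went the other way. At an unadjusted p under 0.05 by edgeR, 1 Müller cell gene was lower and 2 were higher. In ciliated epithelium, 1 was lower and 1 was higher. Glul (means of 2081 CPM in SHAM and 1743 CPM in MOG) and Rlbp1 (377 and 341 CPM) were lower in MOG without overlap, and 1 Müller cell gene was higher without overlap. Of 5 T cell markers, 0 passed the filter on low counts.

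Tubb3 had the smallest adjusted p of the members. The gene lies at chr8:123411424-123422015 on the plus strand, in 4 exon blocks that no other annotated gene overlaps. Its level was 108, 96.2 and 91.8 CPM in SHAM and 76.3, 67.6 and 68.8 CPM in MOG. All MOG libraries were below all SHAM libraries. The log2 fold change was -0.48 ± 0.07 (SE) with an adjusted p of 0.00111 by edgeR, and the call held in all 12 fits that left out a library and in all 12 other fits.

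The other β-tubulins did not follow Tubb3 to the same extent. Tubb5, the broadly expressed β-tubulin, had 333, 366 and 325 CPM in SHAM and 354, 305 and 310 CPM in MOG, with overlapping groups and a log2 fold change of -0.08 ± 0.08. Tubb2a, Tubb2b and Tubb4a had log2 fold changes of -0.10, -0.04 and -0.21, none of which passed the test. Tubb6 had the largest positive value of the members at 0.37 ± 0.17, with all MOG libraries above SHAM (3.39 to 4.35 CPM in SHAM, 4.67 to 5.04 CPM in MOG), but an adjusted p of 0.358 by edgeR. The share of Tubb3 in the summed β-tubulin FPKM was 18.2% ± 1.2 in SHAM and 14.7% ± 0.228 in MOG (SD, n = 3). The 3 α-tubulins had log2 fold changes of -0.24 (Tuba1a), -0.11 (Tuba1b) and -0.27 (Tuba4a), and none was called. All MOG libraries of Tuba1a and Tuba4a lay below SHAM, and 2 of the 3 genes were lower at an unadjusted p under 0.05 by edgeR. Over all 18299 genes tested, 2380 reached that level in either direction. Exons of other annotated genes cover 26.2% of Tuba1a, 27.4% of Tuba1b and 37.3% of Tuba4a exonic sequence.

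Of the 4 stathmins, 3 fell. Stathmins bind free tubulin dimers and destabilize microtubule ends, and Stmn2 is enriched in growing axons. Stmn2, at chr3:8509360-8561606 on the plus strand, had 66.2, 68.5 and 56.5 CPM in SHAM and 49.8, 42.6 and 39.7 CPM in MOG, and its log2 fold change was -0.53 ± 0.11 with an adjusted p of 0.00947 by edgeR. Stmn3, at chr2:181306459-181314500 on the minus strand, had 133, 150 and 117 CPM in SHAM and 102, 89.7 and 90.4 CPM in MOG, and its log2 fold change was -0.50 ± 0.10 with an adjusted p of 0.00902 by edgeR. Stmn1, at chr4:134468320-134473843 on the plus strand, had 107, 120 and 93.9 CPM in SHAM and 86.8, 74.2 and 78 CPM in MOG, and its log2 fold change was -0.43 ± 0.09 with an adjusted p of 0.0114 by edgeR. In each of the 3 genes the groups did not overlap. The fourth stathmin, Stmn4, had 21.4, 22.6 and 17.2 CPM in SHAM and 24.5, 20.8 and 22.2 CPM in MOG, with overlapping groups and a log2 fold change of 0.14 ± 0.12. The summed stathmin FPKM was 193 ± 23.7 in SHAM and 143 ± 11.9 in MOG (SD, n = 3). The calls of Stmn1 and Stmn2 were lost without SHAM 1, MOG 2 or MOG 3, and that of Stmn3 without MOG 2 or MOG 3.

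Tppp3 fell most. The TPPP proteins bundle and stabilize microtubules, and Tppp is best known from oligodendrocytes. Tppp3, at chr8:105467493-105471526 on the minus strand, had 76.2, 75.6 and 57.2 CPM in SHAM and 42.8, 38.9 and 34.4 CPM in MOG. The groups did not overlap, and the log2 fold change was -0.85 ± 0.13 with an adjusted p of 0.00176 by edgeR, called in all 12 fits that left out a library and in all 12 other fits. Tppp itself had 124, 101 and 114 CPM in SHAM and 106, 94.7 and 94.9 CPM in MOG, with overlapping groups and a log2 fold change of -0.20 ± 0.08 that did not pass the test. Tppp3 made up 62.8% ± 4.69 of the summed TPPP FPKM in SHAM and 52% ± 1.71 in MOG (SD, n = 3). Summed oligodendrocyte markers were 61.9 to 66.4 CPM in SHAM and 70.3 to 99.4 CPM in MOG, and summed markers of ciliated epithelium 30.6 to 34.7 CPM and 38.6 to 51.9 CPM, and the part of either in the Tppp3 values was not tested.

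Of the kinesin-1 motor, which carries cargo outward along axons, a heavy chain and a light chain fell. Kif5a, the neuronal heavy chain whose mutation causes hereditary spastic paraplegia in people, had 284, 231 and 269 CPM in SHAM and 220, 203 and 194 CPM in MOG, and its log2 fold change was -0.34 ± 0.08 with an adjusted p of 0.0388 by edgeR. The light chain Klc2 had 119, 127 and 111 CPM in SHAM and 96.7, 100 and 97.5 CPM in MOG, and its log2 fold change was -0.28 ± 0.07 with an adjusted p of 0.0422 by edgeR. Neither pair of groups overlapped, but both genes were close to the threshold. Kif5a was called in 7 of 12 fits that left out a library and in 8 of 12 other fits, and Klc2 in 3 of 12 and 6 of 12. Kif5a lies at chr10:127225696-127263348 and Klc2 at chr19:5107746-5118560, both on the minus strand, and 10.6% of Klc2 exonic sequence is shared with a gene on the other strand. The ubiquitous heavy chain Kif5b had a log2 fold change of 0.12 ± 0.08, the neuronal Kif5c -0.07 ± 0.09 and the light chain Klc1 -0.12 ± 0.07, and none was called.

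**Figure D3:**
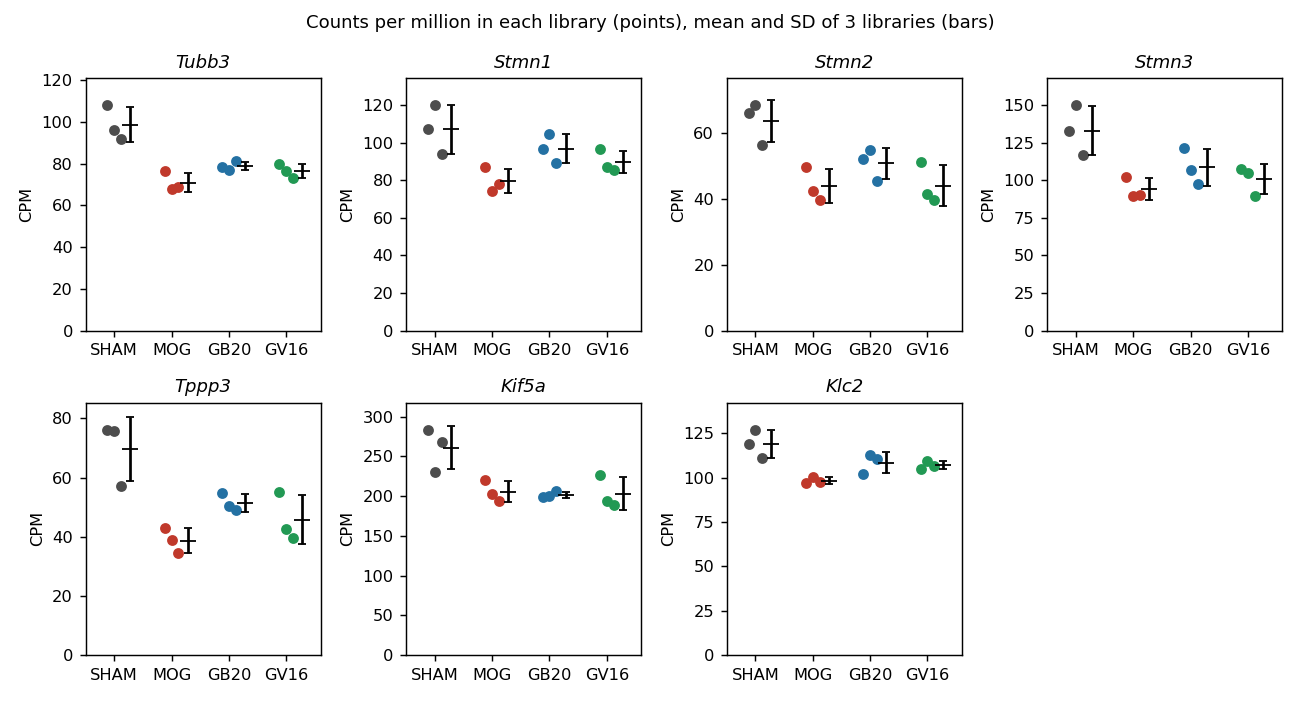
CPM of the 7 members called lower in MOG, on axes from 0, with a point per library in replicate order and bars for the mean and SD of 3 libraries. The MOG points lie below all SHAM points in every panel, and the GB20 and GV16 points lie between or overlap with them, as in Tppp3 (GB20 49 to 54.9 CPM).

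Within single libraries, the 7 genes also fell against a relative of the same family that was not called. The log2 ratio of CPM, not divided by length, of Kif5a to Kif5b was 0.65 in SHAM and 0.19 in MOG, a difference of -0.46. The difference was -0.40 for Tubb3 against Tubb5, -0.68, -0.64 and -0.57 for Stmn2, Stmn3 and Stmn1 against Stmn4, -0.64 for Tppp3 against Tppp and -0.16 for Klc2 against Klc1. The groups did not overlap in any of the 7 ratios. The partners were chosen after the values were seen, so the ratios are a description with no test.

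The remaining 29 members were not called. Among microtubule-associated proteins, Map1a, which stabilizes mature axons and dendrites, had 166, 119 and 159 CPM in SHAM and 118, 104 and 108 CPM in MOG, and its log2 fold change was -0.43 ± 0.15 with an adjusted p of 0.245 by edgeR. Map1b, Map2, the dendritic protein, Mapt, which encodes tau, Map6 and Map7 had log2 fold changes between -0.13 and 0.11. The groups overlapped for all of these but Map7, whose MOG libraries (349 to 363 CPM) were above SHAM (322 to 338 CPM). The kinesin-3 motors Kif1a and Kif1b, carriers of synaptic vesicle precursors and mitochondria, had log2 fold changes of 0.05 and 0.13. The kinesin-2 subunits Kif3a, Kif3b and Kif3c, which also serve transport in photoreceptor cilia, had -0.04, 0.00 and -0.02, and 40.7% of Kif3c exonic sequence is shared with other genes. Among the retrograde motor's subunits, Dynll2 was nearest to a call, with 428, 458 and 382 CPM in SHAM and 370, 310 and 337 CPM in MOG, non-overlapping groups and a log2 fold change of -0.32 ± 0.09 with an adjusted p of 0.0661 by edgeR. The heavy chain Dync1h1 had 0.12, the intermediate chain Dync1i1 -0.15, the light chain Dynll1 -0.17 and the dynactin subunit Dctn1 -0.05.

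**Figure D4:**
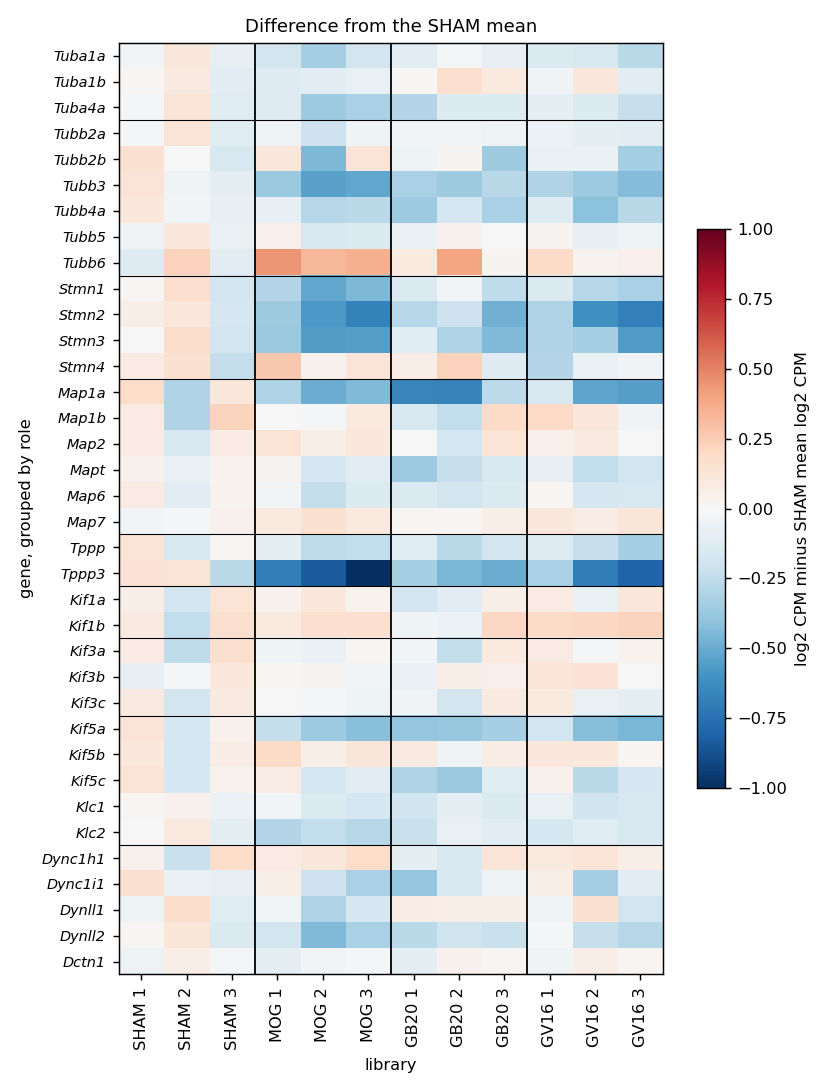
Log2 CPM of each member in each of the 12 libraries minus the SHAM mean, with blue below and red above and black lines between groups and roles. The rows of Tubb3, Stmn1, Stmn2, Stmn3 and Tppp3 are blue in all 9 immunized libraries, except where a GB20 library of Stmn1 lies near the SHAM mean, and SHAM 2 is blue for long genes such as Map1a, Map1b and Dync1h1.

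Of 132 other listed genes of tubulin folding and modification, microtubule regulation and motor transport, 127 were tested, and 1 rose and 1 fell in MOG. These calls were 1.57% of the genes tested in the list, near the 1.34% called over all genes. Agtpbp1, an enzyme that removes glutamates from tubulin tails and whose loss causes Purkinje cell and photoreceptor degeneration, had 215, 195 and 229 CPM in SHAM and 278, 292 and 307 CPM in MOG, and its log2 fold change was 0.46 ± 0.07 with an adjusted p of 0.0015 by edgeR. Kif4, a kinesin of dividing cells, had 8.9, 10.3 and 10.2 CPM in SHAM and 3.92, 7.8 and 5.1 CPM in MOG, and its log2 fold change was -0.81 ± 0.19 with an adjusted p of 0.0325 by edgeR. Neither gene's groups overlapped, and 15.1% of Kif4 exonic sequence is shared with a gene on the other strand. The dynactin subunit Dctn3 came next at -0.27 with an adjusted p of 0.135 by edgeR. Over the 127 genes the median log2 fold change was -0.04.

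The comparisons of each needled group with MOG ask what needling changed. By edgeR, 0 of 36 members were called in GB20 vs MOG, where 0.24% of all genes were called, and 0 of 36 in GV16 vs MOG, where 0.164% were called. At an unadjusted p under 0.05, 7 members were higher and 1 was lower in GB20, against 0 higher and 1 lower in GV16. Over all genes, 1464 and 969 reached that level. The study, with DESeq2 on these same libraries, had reported Tppp3 among the genes that GB20 reversed. Tppp3 had 54.9, 50.3 and 49 CPM in GB20 and 55.1, 42.4 and 39.7 CPM in GV16. All GB20 libraries were above all MOG libraries, while GV16 overlapped with MOG. The log2 fold change against MOG was 0.41 ± 0.13 in GB20 with an adjusted p of 0.379 by edgeR, and 0.24 ± 0.13 in GV16. The adjusted p for GB20 ranged from 0.00168 to 0.532 over the 12 other fits, and 5 of them called Tppp3, among them DESeq2 on the 6 libraries of these groups at 0.00944.

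The other members that had fallen in MOG had smaller differences after needling than Tppp3. Stmn1 had 96.5, 105 and 89.2 CPM in GB20, all above MOG, and 96.4, 87.2 and 85.2 CPM in GV16, with log2 fold changes against MOG of 0.28 ± 0.09 and 0.17 ± 0.09. Stmn2 had 52.2, 54.9 and 45.6 CPM in GB20 and 51.2, 41.5 and 39.6 CPM in GV16, and both overlapped with MOG. The same held for Stmn3, with 122, 107 and 97.4 CPM in GB20 and 108, 105 and 89.4 CPM in GV16. Tubb3 had 78.4, 77 and 81 CPM in GB20, all above MOG, and 80, 76.4 and 72.9 CPM in GV16, with log2 fold changes against MOG of 0.15 ± 0.08 and 0.11 ± 0.08. In none of these genes did the mean of a needled group reach the SHAM mean. Klc2 had 102, 113 and 111 CPM in GB20 and 105, 109 and 106 CPM in GV16, all above MOG. Kif5a had 199, 200 and 206 CPM in GB20 and 227, 193 and 189 CPM in GV16, and log2 fold changes against MOG of -0.03 and -0.02. None of these passed the test by edgeR, although 2 stathmins and Klc2 were higher in GB20 than in MOG at an unadjusted p under 0.05. Ganglion cell markers had 0 calls by edgeR against MOG in either needled group. In GB20, 6 of 15 were higher at an unadjusted p under 0.05, DESeq2 on 6 libraries called 2 and the median log2 fold change was 0.24, and in GV16 these were 0, 0 and 0.12. Their summed level was 714 to 742 CPM in GB20, above all MOG libraries, and 561 to 803 CPM in GV16, which overlapped with MOG.

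The remaining members moved little against MOG. In GB20, Tuba1b had a log2 fold change of 0.20, Dynll1 0.23, Tuba1a 0.17 and Mapt -0.16, all at an unadjusted p under 0.05 that did not hold after adjustment by edgeR. With gene length as an offset, the value of Tuba1a went to 0.10, Tuba1b to 0.14, Dynll1 to 0.22 and Mapt to -0.13. Of the members that had fallen in MOG, Tubb3 went to 0.09 and Stmn3 to 0.12. In GV16 the lowest p was that of Stmn4, with a log2 fold change of -0.28. Between the needled groups directly, GB20 vs GV16, 0 members were called by edgeR and 0 reached an unadjusted p under 0.05, where 0.00546% of all genes were called and 536 reached that level. The members' log2 fold changes in that comparison ran from -0.17 to 0.21. Of the other listed genes, edgeR called 0 in any of these 3 comparisons. The smallest p values against MOG were those of Kif4 (0.59), the severing protein Katnal1 (-0.25) and Dpysl3 (0.25) in GB20 and of Dpysl3 (0.37), the glutamylase Ttll11 (-0.39) and Kif4 (0.64) in GV16, with log2 fold changes in parentheses. In GB20 vs GV16 they were those of Fignl1 (-0.52), Map7d2 (-0.17) and Grip1 (-0.17).

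The needled groups can also be set beside the same 3 SHAM libraries. In GV16 vs SHAM, 4 of 36 members fell and 0 rose, where 0.656% of all genes were called and 0.432% were called lower. They were Tppp3 at -0.61 ± 0.13 (adjusted p 0.0332), Stmn2 at -0.53 ± 0.11 (0.0177), Tubb3 at -0.37 ± 0.07 (0.0177) and Kif5a at -0.36 ± 0.08 (0.0454), by edgeR. In GB20 vs SHAM, 0 of 36 members were called by edgeR, where 0.344% of all genes were called. This count depended on the fit and ran from 0 to 9 over the 12 other fits. It was 3 by DESeq2 on 12 or on 6 libraries and 4 with the gene length offset. It was 9 with that offset and the replicate number as a block. Of the members, 13 reached an unadjusted p under 0.05 there, all of them lower, and 1657 of all genes did. The nearest to a call were Kif5a at -0.37 ± 0.08 (adjusted p 0.0528) and Tubb3 at -0.32 ± 0.07 (0.0607), by edgeR. These comparisons share their SHAM libraries, and a call in GV16 with none in GB20 does not show that the groups differ, since none of the 36 was called between them. Ganglion cell markers were called lower by edgeR in 13 of 15 cases in GV16 vs SHAM and in 6 of 15 in GB20 vs SHAM, while DESeq2 on 6 libraries called 12 in each and all 15 had an unadjusted p under 0.05 in both. Without SHAM 1, GV16 2 or GV16 3 the 4 calls in GV16 fell to 0, and without SHAM 2 or MOG 2 to 2. Of the other listed genes, Dpysl3, a collapsin response mediator that binds tubulin, rose in GV16 with 346, 360 and 347 CPM against 261, 243 and 297 CPM in SHAM, a log2 fold change of 0.39 ± 0.08 with an adjusted p of 0.0261 by edgeR. This 1 call was 0.787% of the 127 genes tested in that list, near the 0.656% of all genes. Next in GV16 were Agtpbp1 (0.29) and the mitochondrial adaptor Rhot1 (0.24), and in GB20, where 0 were called by edgeR, Map7d2 (-0.34), Grip1 (-0.30) and Agtpbp1 (0.25).

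**Figure D5:**
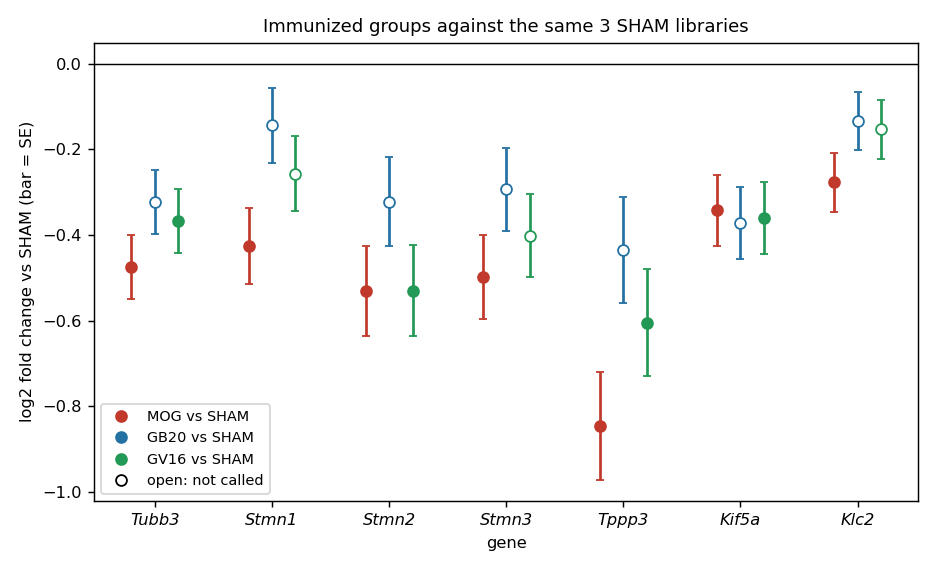
Log2 fold change against the same 3 SHAM libraries, with its standard error, of the 7 members called in MOG, for MOG (red), GB20 (blue) and GV16 (green); filled points had an adjusted p under 0.05. All values are below 0, and Tppp3 runs from -0.85 in MOG to -0.44 in GB20.

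Fold changes moved with gene length, which touches these members because many motors and structural proteins are long. In MOG vs SHAM, Spearman's correlation of log2 fold change with exonic length was 0.322 across 12769 genes and 0.402 across the 36 members, given as a description since genes share libraries. The median log2 fold change of genes under 2 kb was -0.10 over all genes and -0.24 over the 9 members, of which 4 were called lower. Over 5 kb the medians were 0.03 and -0.02, with 2 of 17 members called lower. Library SHAM 2 stood apart in the trend of level on length, with a slope of -0.0891 log2 units per doubling of length, where the other 11 libraries ran from -0.0403 to 0.0444. With length as an offset for each library, all 7 calls in MOG vs SHAM held, Tubb3 at -0.42 and Tppp3 at -0.79, and Dynll2 at -0.27 and Map1a at -0.49 were called as well. Without SHAM 2, 6 members were called. In GB20 vs MOG the correlation was -0.351 over all genes and -0.568 over the members.

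Promoter sequence was at hand for 24 of the 36 members, and for Tubb3 and Stmn3 of the 7 that fell. They are shown because these genes moved together, from 250 bases before to 50 after the RefSeq start on GRCm38.p6, with capitals for the GC box GGGCGG and the CCAAT box (ATTGG where it lies on the other strand).
Tubb3, chr8:123411303-123411602, plus strand: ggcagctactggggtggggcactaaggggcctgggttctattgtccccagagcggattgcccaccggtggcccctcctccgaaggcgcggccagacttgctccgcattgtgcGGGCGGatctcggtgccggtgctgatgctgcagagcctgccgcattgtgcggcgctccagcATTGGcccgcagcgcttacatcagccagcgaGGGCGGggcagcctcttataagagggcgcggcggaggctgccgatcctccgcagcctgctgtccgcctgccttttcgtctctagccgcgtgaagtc
Stmn3, chr2:181314451-181314750, minus strand: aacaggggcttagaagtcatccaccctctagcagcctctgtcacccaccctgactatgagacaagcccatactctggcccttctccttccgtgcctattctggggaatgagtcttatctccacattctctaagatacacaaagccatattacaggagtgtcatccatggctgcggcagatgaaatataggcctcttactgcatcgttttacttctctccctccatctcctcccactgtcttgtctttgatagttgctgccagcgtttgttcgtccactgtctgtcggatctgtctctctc
Tubb3 had the GC box at 2 places and a CCAAT box, and Stmn3 held none of the 7 motifs searched on both strands, the others being the TATA box (TATAAA), the homeodomain core (TAATTA), the cAMP response element (TGACGTCA), the left part of the RE1 element (TTCAGCACC) and an E-box (CAGCTG). The GC box was found in 19 of 27 promoters of members and in 35.7% of all 32851 promoters of this length, and the CCAAT box in 9 of 27 and in 37.4%. The TATA box was in 3 of the 27 and 13.6% of all promoters, the cAMP response element in 3 and 1.79%, the E-box in 5 and 16.3%, the homeodomain core in 0 and 5.29%, and the RE1 part in 0 and 0.371%. A match describes letters in a window and is neither a binding site nor a cause.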

How the data were processed

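Poly(A) RNA from retina was sequenced as paired-end reads. The authors aligned reads to the mm10 build with HISAT2 2.0.5 and deposited raw counts per gene from FeatureCounts, and FPKM values that the authors calculated from counts and gene length. For the annotation, the strand setting and reads that match several genes, the sources used here give nothing. Of 54532 identifiers, 54409 were matched to GENCODE vM21. Counts were tested with edgeR 4.0.16 (R 4.3.3; TMM scaling, filterByExpr with the 4 groups, robust quasi-likelihood fit of all 12 libraries with 1 mean per group, 8 residual degrees of freedom), with Benjamini-Hochberg adjustment over 18299 genes where a call is an adjusted p below 0.05, whatever the fold change. The study used DESeq2; DESeq2 1.42.0 on 12 or on 6 libraries was an alternative, as were limma 3.58.1 (voom, and log2(FPKM + 1) or log2(FPKM + 0.1)), DESeq2 size factors in edgeR, no filter, a stricter filter (at least 1 CPM in 6 libraries), edgeR on 6 libraries, a gene length offset, a replicate block, and leaving out each library. CPM values are scaled by TMM; fold changes are edgeR's. On simulated counts for MOG vs SHAM with 200 genes changed by 1 log2 unit, edgeR recovered 99.5%, with 10 false calls among 18031 genes. That size exceeds the change of every member in MOG vs SHAM, which ran from -0.85 to 0.37. The simulation therefore does not measure how well changes of the members' size are found, and an uncalled member may have changed. Groups came from the sample titles. Members called in any comparison are given in every library, and other listed genes are named if called or among the 3 smallest p values of a comparison; Map1a, Dynll2, Tubb5, Stmn4 and Tppp are also given by library, chosen after their values were seen. The members and lists were chosen with earlier results of these data known. Depth was 15860278 to 19194280 counted fragments per library, and 3 libraries per group limit the precision.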

Additional observations from a re-analysis of the deposited data

How the results depend on the processing

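The calls of Tubb3 and Tppp3 in MOG vs SHAM held in all 24 other fits, and no called log2 fold change of a member changed sign: of 264 refitted values, 191 kept their call and 73 lost it. Members called in MOG vs SHAM numbered 7 and became 2 with limma on log2(FPKM + 1) and 2 on log2(FPKM + 0.1), and 2 to 8 when a library was left out (3 without SHAM 1, 2 without MOG 2, 2 without MOG 3). In GB20 vs MOG the 0 became 1 (Tppp3) with no filter on low counts, DESeq2 on 6 libraries and edgeR on 6 libraries, and stayed 0 to 0 when a library was left out. In GB20 vs SHAM the 0 became 7 with no filter, 3 with DESeq2 on 12 libraries, 3 with DESeq2 on 6 libraries and 4 with the gene length offset, and 0 to 3 with a library left out. In GV16 vs SHAM the 4 became 7 with no filter, 1 with edgeR on 6 libraries, 0 with limma on log2(FPKM + 1) and 0 on log2(FPKM + 0.1), and 0 to 4 with a library left out (0 without SHAM 1, GV16 2 or GV16 3, and 2 without SHAM 2 or MOG 2). Members called in GV16 vs MOG and in GB20 vs GV16 were 0 in all fits. Other listed genes called in MOG vs SHAM went from 2 to 1 with edgeR on 6 libraries and 1 in both FPKM fits (1 to 2 with a library left out). In GB20 vs MOG they went from 0 to 1 with no filter (0 to 0), and in GV16 vs MOG from 0 to 3 with no filter, 1 with DESeq2 on 12 libraries, 2 with DESeq2 on 6 libraries, 2 with edgeR on 6 libraries and 1 with the gene length offset (0 to 1). In GB20 vs SHAM they went from 0 to 3 with no filter (0 to 2), and in GV16 vs SHAM from 1 to 3 with no filter, 3 with DESeq2 on 12 libraries, 0 with edgeR on 6 libraries and 0 in both FPKM fits (0 to 3). Fewer libraries enter the fits that leave one out. The other causes were not tested.

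With the replicate number as a block, 1 member (Tppp3) was called in GB20 vs MOG, 5 in GB20 vs SHAM, 8 in MOG vs SHAM and 5 in GV16 vs SHAM; other listed genes called were 1 in GV16 vs MOG, 1 in GB20 vs SHAM and 2 in GV16 vs SHAM. With the replicate block and the gene length offset, members called were 1 in GB20 vs MOG, 9 in GB20 vs SHAM, 9 in MOG vs SHAM and 7 in GV16 vs SHAM, and other listed genes were 1 in GV16 vs MOG, 4 in GB20 vs SHAM and 2 in GV16 vs SHAM. Libraries with the same number correlated at -0.123 to 0.469 over 18 pairs, 8 of them above 0.1, and 10 of 12 libraries correlated best with their own number, a hint from the data. The experiment was repeated for each replicate per the study's methods, but neither these nor the labels say that a number marks a repeat, so the pairing stays out of the main comparisons.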
